A study of Mus musculus with 5 samples.

Results

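The 10 genes of the cytotoxic granule listed next were followed in natural killer T (NKT) cells of the mouse thymus, in the absence and presence of interleukin-15 (IL-15): Rab27a, Unc13d, Stx11 and Stxbp2 of the release machinery, Lamp1, Srgn, Ctsw and Nkg7 of the granule membrane, matrix and content, and the protease inhibitors Serpinb6b and Serpinb9. They were chosen by symbol, as every non-control probe whose RefSeq transcript belongs to these genes. This gave 12 probes for the 10 genes, out of 55681 probes and 20022 named genes on the array, with 2 probes each for Stxbp2 and Nkg7. All 10 genes passed the filter on dim probes.

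Cytotoxic lymphocytes store granzymes and perforin in secretory lysosomes, where the proteoglycan serglycin packs them. On contact with a target the granules are tethered by Rab27a, primed by Munc13-4 and fused with the plasma membrane by a syntaxin-11 and Munc18-2 complex, and human defects in these proteins cause familial haemophagocytic disease. The killer cell shields its own cytosol from leaked granzyme B with a serpin. Thymic NKT cells include an NK-like subset that carries part of this equipment, and IL-15 is a cytokine that NK cells and this subset depend on.

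The IL15ko group held 2 samples from mice of genotype IL15-/- and the wild-type group 3 samples, both on the C57BL/6 background. Each sample was total RNA of CD3e-positive, CD1d-tetramer-positive cells sorted from 10 pooled thymi and was read on 1 single-colour Agilent array. The labels give neither the age nor the sex of the mice, nor whether each replicate was its own pool of thymi, so the p-values reflect the spread among these 5 samples alone, and that may be technical. The design asks how the genes expressed by thymic NKT cells differ between mice without and with IL-15.

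The share of probes well above background was 45.2% and 33.9% on IL15ko arrays 1 and 2, against 44.6% to 49.6% on the wild-type arrays, so IL15ko 2 was the dimmest. Wild-type 1 and 2 lay closer to each other (robust SD of their log2 difference 0.155) than any other pair (0.365 to 0.622). Il15 itself, the deleted gene, gave no signal well above background, so its probe checks nothing about the labels. All 10 NKT and T-cell markers, such as Cd3e and Zbtb16, were well above background on all 5 arrays. Their levels were not all steady: 2 were called higher in IL15ko cells (Zbtb16 and Slamf6), 1 lower (Klrb1c) and 7 not. Of 8 thymocyte markers, Dntt and Cd1d1 were well above background on all 5 arrays and Arpp21 only on wild-type 2. Rag1, Rag2, Ptcra, Cd8a and Cd8b1 were on none. Those 8 summed to 0.508 to 0.607 on IL15ko arrays, against 0.549 to 0.642 on wild-type arrays, in multiples of the 75th percentile signal. Cd1d1, the brightest of the 8 on every array, made up most of these sums. Dntt varied within both groups, with log2 signals of -4.57 and -3.05 on the IL15ko arrays, against -3.12, -3.34 and -5.20 on the wild-type arrays. The 7 markers of NK and innate lymphoid cells, some of which NKT cells also carry, summed to 2.79 to 3.68 times the 75th percentile signal on IL15ko arrays, against 14.9 to 16.3 on wild-type arrays. Of these, 4 of the 5 tested were called lower, Ncr1 was detected on no array and Eomes only on wild-type 2. The 7 myeloid markers summed to 4.94 to 11.2 on IL15ko arrays, against 6.64 to 8.52 on wild-type arrays. Fcer1g was called lower, Lyz2, Adgre1 and Mpeg1 were detected on no array and Cd14 only on wild-type 3. Itgam, the brightest of the 7, and Csf1r were on all 5 arrays and not called, with log2 differences of 0.70 and -2.29. The 7 B-cell markers summed to 0.0915 to 0.116 on IL15ko arrays, against 0.0531 to 0.12 on wild-type arrays. The 7 mast-cell and basophil markers summed to 0.0827 to 0.129, against 0.0591 to 0.138. Of the B-cell and mast-cell lists only Cd79b (log2 difference 0.92) and Tpsb2 (-0.02) were tested, and neither was called. Xist, the transcript of the inactive X chromosome, was well above background on both IL15ko arrays and on no wild-type array. The Y-linked genes Ddx3y and Eif2s3y had log2 differences of -1.36 and -1.98 but were well above background on all 5 arrays. Of the other Y-linked genes, Uty was on the 3 wild-type arrays only and Kdm5d only on wild-type 3. The sex makeup of the pools thus differed between the groups, and its part in the results below cannot be told apart from genotype.

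Levels are given as log2 of the scanner's processed signal minus the array's 75th percentile over probes detected on all arrays, so that a level of 0 equals that percentile. A gene was called where limma's p, adjusted over all 11997 tested genes, was under 0.05. Of the 10 granule genes, 3 were called lower in IL15ko cells (Nkg7, Serpinb9 and Serpinb6b) and 0 higher, or 3 lower and 1 higher at an unadjusted p under 0.05, where 12.7% of all tested genes were lower and 14.8% higher. Over all tested genes 3.58% were called lower, 3.75% higher and 7.33% in either direction. The groups did not overlap for 7 of the 10 genes. Rab27a, Lamp1, Ctsw, Nkg7, Serpinb6b and Serpinb9 were lower in IL15ko cells, and Stxbp2 was higher at its brighter probe. Over all tested genes the groups did not overlap for 47.2% (22% lower and 25.1% higher). By role, 0 of the 4 machinery genes were called, 1 of the 4 membrane, matrix and content genes, and both inhibitors. The 1 machinery gene at an unadjusted p under 0.05 was Stxbp2 at its brighter probe (log2 difference 0.37). Its dimmer probe read lower in IL15ko cells (-0.49), and the machinery median given next uses the brighter probe. The median log2 difference (IL15ko minus wild-type) was 0.08 for the machinery, -0.35 for membrane, matrix and content, and -1.19 for the inhibitors, against 0.01 over all tested genes. In bulk samples, fewer cells of a type and less RNA per cell cannot be told apart. Markers of NK cells were lower and some NKT and T-cell markers differed too (above), and their part in the result was not tested.

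**Figure D1:**
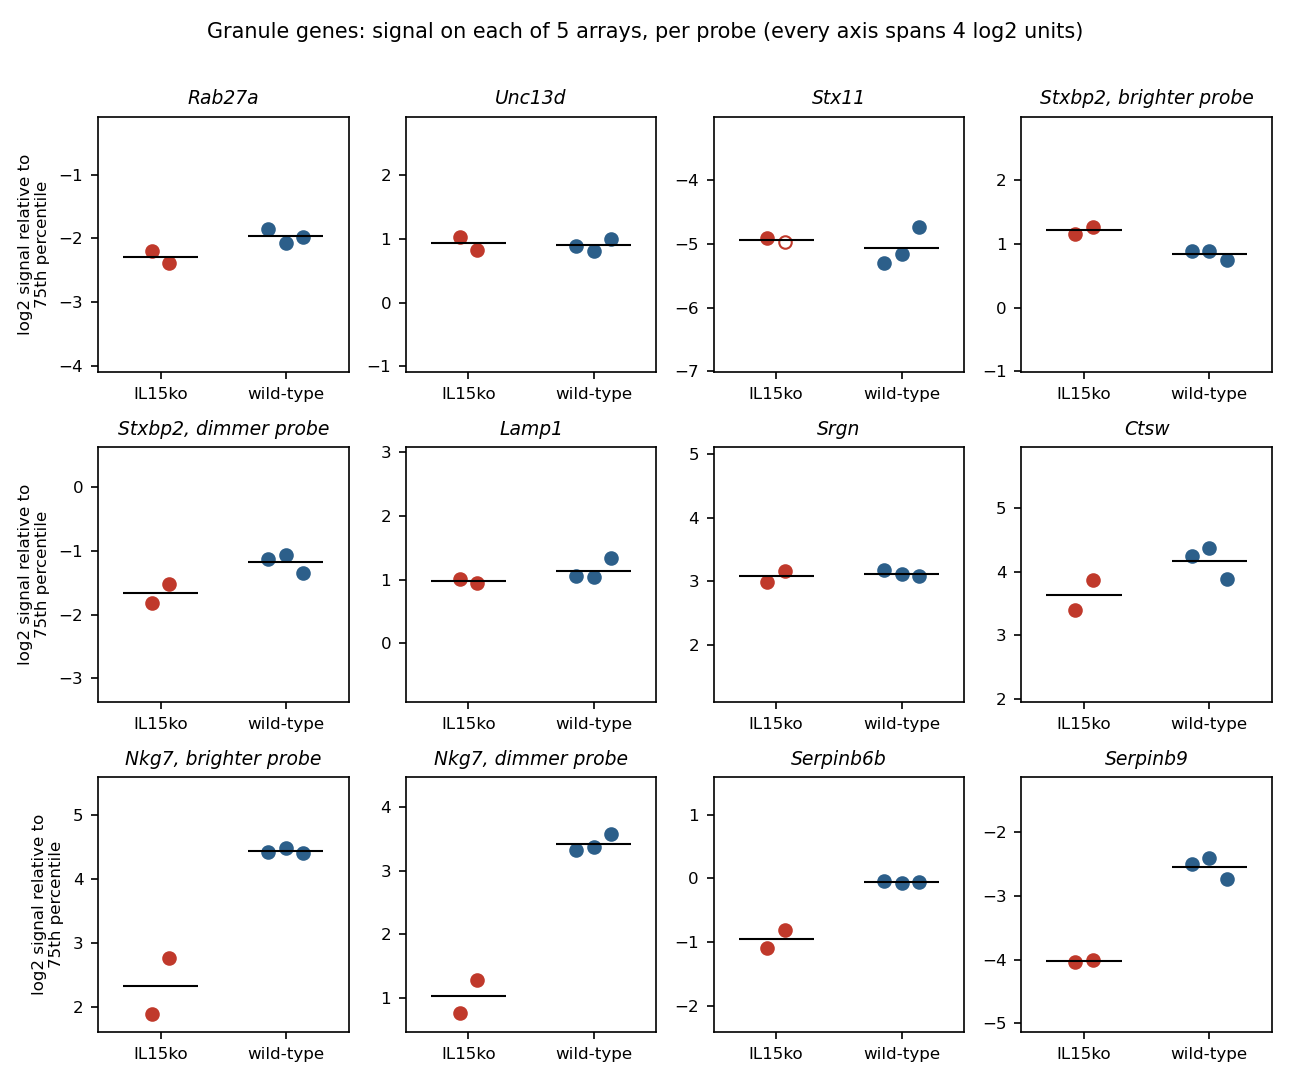
Log2 signal relative to the array's 75th percentile (y axis, spanning 4 units in every panel) for each of the 12 probes on the 2 IL15ko arrays (red, left) and the 3 wild-type arrays (blue, right); bars are group means and the open circle is a signal not well above background. The groups lie far apart for both Nkg7 probes and for Serpinb9, closer for Serpinb6b, and overlap for Unc13d, Stx11 and Srgn.

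Nkg7 encodes a membrane protein of cytotoxic granules that promotes their release in killer lymphocytes. It showed the largest difference of the 10 genes. Its brighter probe (A_55_P2009582) had log2 levels of 1.89 and 2.76 on IL15ko arrays 1 and 2, against 4.43, 4.50 and 4.41 on wild-type arrays 1 to 3. On a linear scale this was 3.69 and 6.79 times the 75th percentile in IL15ko cells, against 21.6, 22.6 and 21.3 times in wild-type cells. The groups did not overlap, and the IL15ko arrays stood further apart (SD 0.62) than the wild-type arrays (SD 0.04). The fall was 4.35-fold (95% confidence interval 2.69 to 7.04), or -2.12 ± 0.27 (SE) on the log2 scale (adjusted p = 0.0197 by limma).

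The dimmer Nkg7 probe (A_51_P499195) read 0.77 and 1.29 on the IL15ko arrays, against 3.32, 3.36 and 3.58 on the wild-type arrays. It differed by -2.39 on the log2 scale, with an adjusted limma p of 0.0226 over the 26482 probes of a fit by probe, where 2.74% of probes were called, so both probes moved alike. The size of the fall rested on the IL15ko arrays, at -1.68 without IL15ko 1 and -2.56 without IL15ko 2. The call was lost without wild-type 1 (adjusted p = 0.0876) or wild-type 2 (adjusted p = 0.0752), although the log2 difference there was -2.13 and -2.10.

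The 250 bases before the start site of each called gene, from RefSeq on GRCm38.p6, are printed because these are the 3 granule genes that were called lower. They are written 5′ to 3′ on the gene's strand, and capitals mark matches on either strand to the STAT motif TTCNNNGAA or the T-box motif GGTGTGA. The windows are chr7:43436888-43437137 (plus strand) for Nkg7, chr13:32965011-32965260 (plus strand) for Serpinb6b and chr13:33004291-33004540 (plus strand) for Serpinb9.
Nkg7: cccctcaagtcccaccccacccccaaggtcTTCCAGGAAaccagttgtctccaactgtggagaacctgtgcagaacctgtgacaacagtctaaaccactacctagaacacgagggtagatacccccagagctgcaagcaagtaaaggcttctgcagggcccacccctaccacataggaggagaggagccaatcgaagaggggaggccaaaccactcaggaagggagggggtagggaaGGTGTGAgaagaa
Serpinb6b: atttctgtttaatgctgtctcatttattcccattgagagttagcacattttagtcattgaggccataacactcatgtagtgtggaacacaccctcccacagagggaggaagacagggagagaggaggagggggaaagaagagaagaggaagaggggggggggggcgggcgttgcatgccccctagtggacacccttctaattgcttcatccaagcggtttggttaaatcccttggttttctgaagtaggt
Serpinb9: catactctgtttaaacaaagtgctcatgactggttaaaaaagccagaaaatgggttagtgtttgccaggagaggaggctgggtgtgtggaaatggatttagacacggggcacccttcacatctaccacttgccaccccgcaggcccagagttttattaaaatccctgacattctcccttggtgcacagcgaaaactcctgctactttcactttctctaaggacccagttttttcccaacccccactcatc
The Nkg7 window held 1 match to the STAT motif, which begins 220 bases before the start site, and 1 to the T-box motif, which begins 13 bases before it. The STAT motif occurred in 7.02% and the T-box motif in 3.33% of the 32851 windows of the same length in the table. The windows of Serpinb6b and Serpinb9 held neither of them, nor the RUNX motif TGTGGTT (4.4% of windows) or the ETS motif GGAAGT (19.7%). Windows were found for 8 of the 10 genes, 10 windows in all, since Rab27a and Srgn had 2 each. Among the 5 uncalled genes with windows, a Rab27a window matched the T-box and RUNX motifs, its other window the ETS motif, 1 Srgn window the RUNX motif and the other the ETS motif. No window of Stx11, Stxbp2 or Lamp1 matched any of the 4 motifs, and no matches overlapped. A match is a string of letters and shows no binding.

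Serpinb9 is the mouse inhibitor of granzyme B, also known as Spi6, that protects cytotoxic lymphocytes from their own protease. Its log2 levels were -4.04 and -4.01 on the IL15ko arrays, against -2.50, -2.41 and -2.74 on the wild-type arrays. Every IL15ko value was below every wild-type value, and the gap exceeded the SDs of 0.02 and 0.17. The fall was 2.78-fold (2.13 to 3.62), or -1.47 ± 0.15 on the log2 scale (adjusted p = 0.0125). The signal was dim, at 0.0609 and 0.0619 times the 75th percentile in IL15ko cells, against 0.177, 0.188 and 0.149 times in wild-type cells. With a normexp background correction the log2 difference was -0.63 (adjusted p = 0.37). The log2 difference stayed between -1.57 and -1.40 when any array was left out. The call was kept without wild-type 3 and lost without IL15ko 1 (adjusted p = 0.0524), IL15ko 2 (0.0646), wild-type 1 (0.0841) or wild-type 2 (0.063).

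Serpinb6b is a clade B serpin of the same gene cluster. It had log2 levels of -1.09 and -0.81 on the IL15ko arrays, against -0.04, -0.08 and -0.05 on the wild-type arrays. The groups did not overlap, and the wild-type arrays were nearly identical (SD 0.02, against 0.20 for the IL15ko arrays). The fall was 1.86-fold (1.45 to 2.38), or -0.90 ± 0.14 on the log2 scale (adjusted p = 0.0286). This was the least secure of the 3 calls. It was lost without any 1 of the 5 arrays, with log2 differences between -1.04 and -0.76 and adjusted p from 0.0535 to 0.14, and in the authors' deposited value table (log2 difference -0.70, adjusted p = 0.0828).

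Serpinb6b and Serpinb9 are direct neighbours in RefSeq's annotation, within a row of 16 Serpinb genes on chromosome 13. The row opens with Serpinb1a, an inhibitor of neutrophil serine proteases, which rose. Serpinb1a had log2 levels of -0.48 and -0.36 on the IL15ko arrays, against -1.46, -1.55 and -2.10 on the wild-type arrays, a 2.44-fold rise (1.63 to 3.63, adjusted p = 0.037). Its call was lost without IL15ko 1, IL15ko 2, wild-type 1 or wild-type 2 (log2 difference 1.23 to 1.41, adjusted p 0.094 to 0.163), and it was called in 8 of 17 alternatives. Serpinb6a and Serpinb6c, close relatives of Serpinb6b, differed by 0.15 (adjusted p = 0.516) and 0.32 (adjusted p = 0.264) on the log2 scale, and the rest of the row was not tested. Of the 22 other clade B serpins listed, only 4 were well above background on 2 or more arrays, and of these 1 was called higher and 0 lower (1 and 0 at an unadjusted p under 0.05). These serpins are close copies of each other, and 1 probe could read several of them, which leaves single values uncertain.

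**Figure D2:**
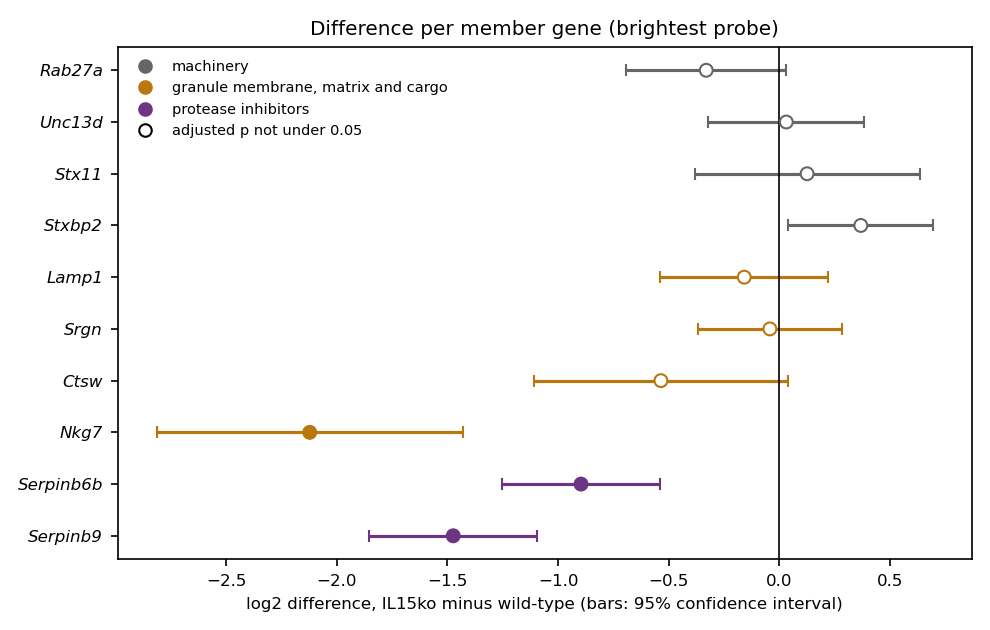
Log2 difference, IL15ko minus wild-type (x axis), for the 10 genes in order of role, each at its brightest probe, with 95% confidence intervals from limma; filled circles have an adjusted p under 0.05. The 3 called genes lie between -2.12 and -0.90, and the other 7 between -0.54 and 0.37.

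The release machinery showed no called difference. Rab27a, the small GTPase that docks granules at the plasma membrane, had log2 levels of -2.20 and -2.39 on the IL15ko arrays, against -1.85, -2.07 and -1.97 on the wild-type arrays. The groups did not overlap, but the difference of -0.33 ± 0.14 on the log2 scale missed the threshold (adjusted p = 0.209). Its interval, a ratio of 0.619 to 1.02, leaves room for little change or for a moderate loss.

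Unc13d encodes Munc13-4, the priming factor that brings docked granules to fusion readiness. It read 1.03 and 0.83 on the IL15ko arrays, against 0.88, 0.81 and 1.00 on the wild-type arrays. The groups overlapped, with a ratio of IL15ko to wild-type of 1.02 (0.801 to 1.30, adjusted p = 0.9). Stx11 encodes the target-membrane syntaxin of granule fusion. Its probe was dim and read -4.91 and -4.96 on the IL15ko arrays, against -5.29, -5.15 and -4.73 on the wild-type arrays, and was not well above background on IL15ko 2. Its ratio was 1.09 (0.767 to 1.55, adjusted p = 0.712), and this interval leaves room for a modest change in either direction.

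Stxbp2 encodes Munc18-2, the partner of syntaxin-11, and its probes disagreed. The brighter probe (A_51_P134062) read 1.15 and 1.27 on the IL15ko arrays, against 0.89, 0.89 and 0.75 on the wild-type arrays, a log2 difference of 0.37 ± 0.13 (adjusted p = 0.149). The dimmer probe (A_55_P2000668) read -1.82 and -1.52 on the IL15ko arrays, against -1.13, -1.07 and -1.35 on the wild-type arrays, a log2 difference of -0.49 (adjusted p = 0.212 over all probes). The groups did not overlap at either probe, and the probes pointed in opposite directions. The within-array gap between these probes differed between groups by 0.85 on the log2 scale, with all IL15ko arrays above all wild-type arrays (a description, since the disagreement was seen before the gap was taken). The mean over both probes had a log2 difference of -0.06 (adjusted p = 0.826), so the direction for the gene is not settled.

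Among the membrane, matrix and content genes, Lamp1 and Srgn were not called. Lamp1, the lysosomal membrane protein that appears on the cell surface as CD107a after degranulation, read 1.01 and 0.95 on the IL15ko arrays, against 1.05, 1.04 and 1.33 on the wild-type arrays. Its ratio was 0.896 (0.689 to 1.16, adjusted p = 0.525). Srgn, which encodes serglycin, the proteoglycan that holds granzymes and perforin in the granule, read 2.99 and 3.17 on the IL15ko arrays, against 3.18, 3.12 and 3.08 on the wild-type arrays. The groups overlapped, with a ratio of 0.971 (0.775 to 1.22, adjusted p = 0.846). This interval does not reach the ratio of any of the 3 called genes, but it reflects only the spread among these samples, which may be technical.

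Ctsw, which encodes cathepsin W, a cysteine protease restricted to cytotoxic lymphocytes, lay between these and Nkg7. It read 3.39 and 3.87 on the IL15ko arrays, against 4.24, 4.37 and 3.88 on the wild-type arrays. IL15ko 2 and wild-type 3 nearly met, and the difference of -0.54 ± 0.23 on the log2 scale missed the threshold (adjusted p = 0.204). Its size moved from -0.30 without IL15ko 1 to -0.77 without IL15ko 2.

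Gaps between genes within each array were also taken, as a description with no test, since the pairs were picked with the genes' differences known. The difference between groups in the within-array gap was -2.08 for Nkg7 minus Srgn, -1.59 for Nkg7 minus Ctsw, -1.96 for Nkg7 minus Lamp1 and -2.15 for Nkg7 minus Unc13d, on the log2 scale. It was -0.58 for Serpinb9 minus Serpinb6b and -2.76 for Serpinb9 minus Serpinb1a. In each of these 6 pairs all IL15ko arrays lay below all wild-type arrays. That follows largely from pairing genes already seen to differ, and the groups did not overlap for 47.2% of single tested genes either. The share over all pairs of genes was not taken.

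Among the main granule cargo genes, part was called lower. Of 6 tested granzyme and perforin genes, 3 were called lower and 0 higher, against 3.58% and 3.75% of all tested genes. At an unadjusted p under 0.05 these counts were 5 and 0, against 12.7% and 14.8%. The called genes were Gzma (log2 difference -5.70), Gzmb (-5.49) and Gzmc (-2.14). Prf1, the pore-forming perforin, stood at -1.29 (adjusted p = 0.0603), Gzmm at -0.71 (0.0927) and Gzmk at -0.28 (0.594). Gzma was called in all 17 alternatives, but Gzmb and Gzmc were lost without wild-type 1 (adjusted p = 0.0535 each) and with normexp (-4.52 and -1.24, adjusted p = 0.0527 and 0.113), and Gzmb stood at -4.86 without IL15ko 1 and -6.11 without IL15ko 2.

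Other genes of docking, priming and fusion mostly did not pass. Of 37 listed genes 28 were tested, 2 were called lower and 0 higher (5 and 4 at an unadjusted p under 0.05), with a median log2 difference of -0.09. For this list and those that follow, counts are to be read against 3.58% lower and 3.75% higher among all tested genes, or 12.7% and 14.8% at an unadjusted p under 0.05, and no list was tested as a whole. Both called genes encode synaptotagmin-like proteins, effectors that tie Rab27 to membranes. Sytl3 read -2.92 and -3.26 on the IL15ko arrays, against -1.37, -1.65 and -1.27 on the wild-type arrays, a 3.17-fold fall (2.28 to 4.40, adjusted p = 0.0164). Its other 2 probes had log2 differences of -1.30 and -2.08. Sytl2 read -3.22 and -2.89 on the IL15ko arrays, against -2.01, -1.92 and -1.54 on the wild-type arrays, a 2.35-fold fall (1.64 to 3.36, adjusted p = 0.0321). Sytl1, of the same family, differed by 0.38 (adjusted p = 0.18). Rab27b, the close relative of Rab27a, was named after its values were seen. It was well above background on all 3 wild-type arrays and on no IL15ko array, and did not pass (adjusted p = 0.0645). On IL15ko 2 the lowest signal well above background was -4.92, higher than the wild-type levels of -5.55, -4.99 and -5.37. That array could thus not show a loss, and the bound of at least 1.34-fold lower rests on IL15ko 1. A second Rab27b probe, well above background on 1 array, had a log2 difference of -0.69. Without IL15ko 2 the call of Sytl3 was lost (adjusted p = 0.0714), as it was without wild-type 1 (0.0851) or 2 (0.0536), and of the 5 fits with 1 array left out, Sytl2 was called only in that without wild-type 3. Over all alternatives, the call of Sytl3 was kept in 11 and that of Sytl2 in 8 of 17 alternatives.

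**Figure D3:**
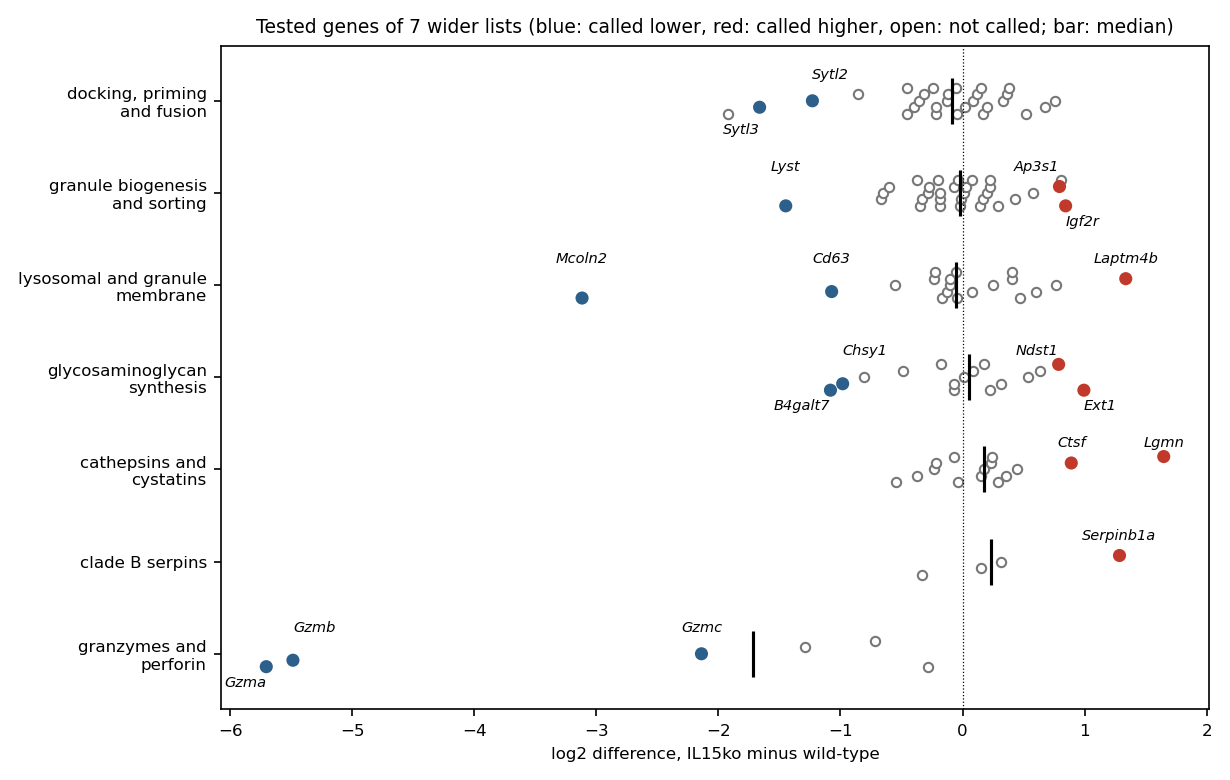
Log2 difference, IL15ko minus wild-type (x axis), for the tested genes of 7 wider lists; open circles were not called, blue were called lower, red called higher, and black bars are list medians. Most genes of docking, biogenesis, membrane and cathepsin lists lie within 1 log2 unit of 0, while Gzma and Gzmb lie beyond -5.

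Granule biogenesis and the sorting of cargo to lysosome-related organelles depend on the AP-3 and HPS complexes and on mannose-6-phosphate receptors. Of 31 tested genes 1 was called lower and 2 higher, with a median of -0.02, close to the 7.33% called in either direction over all genes. Lyst, the gene mutated in Chediak-Higashi syndrome and the beige mouse, which limits lysosome size, was 2.73-fold lower (1.66 to 4.49, adjusted p = 0.047). A second probe gave -1.63. Its call was lost without any 1 array (log2 difference -1.83 to -1.06), normexp gave -0.35, and IL15ko 2 was not well above background. Igf2r, the large mannose-6-phosphate receptor that carries granzymes to granules, rose 1.80-fold (1.46 to 2.22, adjusted p = 0.023), and Ap3s1, a small subunit of AP-3, 1.73-fold (1.41 to 2.14, adjusted p = 0.0255). Each was called in only 1 of the 5 fits with 1 array left out, that without wild-type 3, with log2 differences of 0.81 to 0.87 for Igf2r and 0.77 to 0.82 for Ap3s1, and with a replicate block both were lost (adjusted p = 0.0716 and 0.0793).

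Of 19 tested genes of the lysosomal and granule membrane 2 were called lower and 1 higher, with a median of -0.05. Mcoln2, an endolysosomal cation channel gene, read -5.13 and -5.02 on the IL15ko arrays, against -2.23, -1.87 and -1.77 on the wild-type arrays, an 8.68-fold fall (6.32 to 11.9, adjusted p = 0.0059). Its call was kept without each array in turn, but IL15ko 2 was not well above background. With normexp the log2 difference was -1.46 and the call was lost (adjusted p = 0.186). Cd63, a tetraspanin of granule membranes, had a log2 difference of -1.07 (adjusted p = 0.0273), but IL15ko 2 was not well above background. The call was lost without any 1 array (-1.23 to -0.91), the deposited table gave -0.51 (adjusted p = 0.119), and the sign turned with normexp (0.07). Laptm4b was 2.53-fold higher (adjusted p = 0.0403) but well above background on only 1 array of each group, and its call was lost without any array except wild-type 3.

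Of 16 tested enzymes that build glycosaminoglycan chains, 2 were called lower, 2 higher and 12 not, with a median of 0.05. Which of these chains serglycin carries in these cells was not measured. B4galt7, which adds the first galactose of the linkage region, was 2.12-fold lower (adjusted p = 0.0206) and Chsy1, a chondroitin synthase gene, 1.98-fold lower (adjusted p = 0.0342). Ext1 and Ndst1, which make and modify heparan sulfate, were 1.99-fold (adjusted p = 0.021) and 1.73-fold higher (adjusted p = 0.0316), but another probe of Ndst1 gave -1.12 on the log2 scale and the mean over its probes 0.25 (adjusted p = 0.523). The calls of Chsy1 and Ndst1 were lost without any 1 array (-1.18 to -0.79 and 0.69 to 0.89). Ext1 was called only without wild-type 3, and B4galt7 without IL15ko 1 or wild-type 3, of the 5 such fits. Of 15 tested cathepsins and cystatins 2 were called higher and 0 lower (4 and 1 at an unadjusted p under 0.05), with a median of 0.17. Lgmn, which encodes the lysosomal protease legumain, rose 3.14-fold (2.38 to 4.14, adjusted p = 0.0108) and Ctsf, cathepsin F, 1.85-fold (adjusted p = 0.0222). Lgmn lost its call without wild-type 1 or 2 (adjusted p = 0.0682 and 0.0599), and Ctsf without any array except wild-type 3. Ctsc, the dipeptidyl peptidase that activates granzymes, differed by 0.45 on the log2 scale (adjusted p = 0.175), and Cst7, its inhibitor cystatin F, by -0.22 (adjusted p = 0.397). Both were picked with their values known.

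The genes whose 5 values, centred on their mean, ran closest to a called granule gene were found by root mean square difference, as a description over 5 arrays. For Nkg7 these were Txnip (0.0499 log2 units) and Abcb1a (0.0867), for Serpinb6b Pgm2l1 (0.0458) and Nudt4 (0.0488), and for Serpinb9 Rnu3b1 (0.0583) and Siah1a (0.0693).

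**Figure D4:**
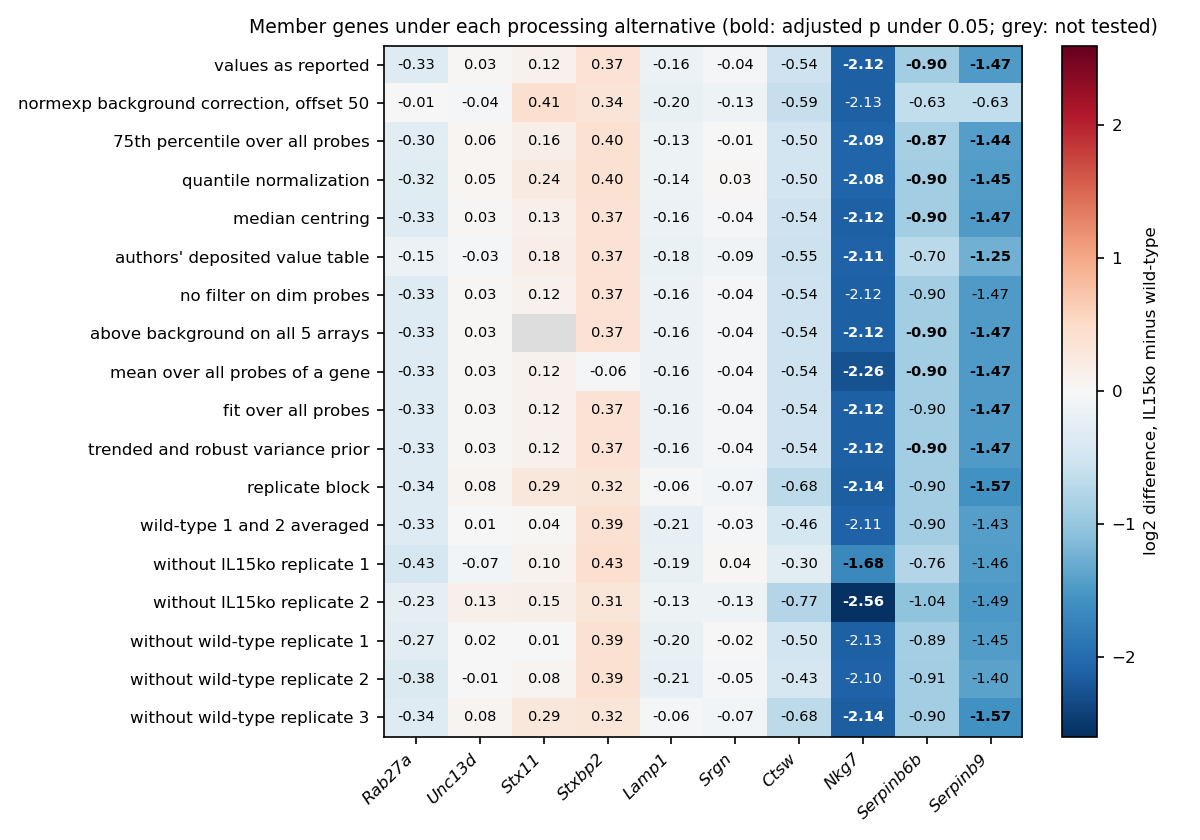
Log2 difference, IL15ko minus wild-type, of the 10 genes (columns) as reported (top row) and under 17 processing alternatives (rows); bold values have an adjusted p under 0.05 and the grey cell was not tested. Nkg7 stays between -2.56 and -1.68, Serpinb9 between -1.57 and -0.63 and Serpinb6b between -1.04 and -0.63, while no value of the other 7 genes is bold.

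Over 17 alternatives Nkg7 was called in 12, Serpinb9 in 10 and Serpinb6b in 6, always lower. The other 7 genes were called in 0 alternatives by limma.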

How the data were processed

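Total RNA of sorted thymic NKT cells was read on 5 arrays. The authors' scanner output gives intensity per spot, made by Agilent Feature Extraction 10.7.1.1 per the file headers, with background removed and spatial trend corrected, unscaled between arrays, on a design annotated to mm9. The deposited value table is also linear intensity and unscaled: for bright spots it equals the spot's median less its local background, with an array-specific constant added.

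Control and outlier spots were left out and spots of 1 probe averaged. Log2 signals were centred on each array's 75th percentile over the 18519 probes detected everywhere. Accessions matched to RefSeq on GRCm38.p6 named 26425 of 55681 probes. The brightest probe stood for a gene, and 11997 genes detected on 2 or more arrays were fitted with limma 3.58.1 (lmFit, eBayes; R 4.3.3) and adjusted by Benjamini-Hochberg. Only 5 arrays, all on 1 slide, limit the precision, and slide could not be tested. The scanner files used here hold no mean spot signal, so normexp (offset 50) used the spot median.

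The genes and lists were chosen with earlier results of these data known. All 10 genes were named, and of each wider list the called genes, up to 4 per direction by smallest p. Rab27b, Sytl1, Prf1, Gzmm, Gzmk, Serpinb6a, Serpinb6c, Ctsc, Cst7, the Xist and Y-linked genes and the single markers were named after their values were seen. Further settings, a replicate block and leaving out each array were tried as alternatives.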

Additional observations from a re-analysis of the deposited data

How the results depend on the processing

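The 3 calls among the 10 granule genes depended on the processing, while the direction of Nkg7, Serpinb9 and Serpinb6b was lower in every one of 17 alternatives. Many of these alternatives could not turn the direction. The groups did not overlap for these 3 genes, so leaving out or averaging arrays kept the sign. Another filter or variance prior leaves the log2 difference itself unchanged. The number called lower was 0 with normexp, without a filter on dim probes and with wild-type 1 and 2 averaged. It was 1 without IL15ko 1 or IL15ko 2, 0 without wild-type 1 or 2, and 2 without wild-type 3, a range of 0 to 2. None was called higher by limma in any alternative. Over all genes (450 higher, 429 lower), normexp called 0 higher and 1 lower, no filter 0 and 3, averaging wild-type 1 and 2 gave 34 and 67, and a trended, robust prior 820 and 695. Requiring signal on all 5 arrays gave 710 higher. Leaving out 1 array gave 1 to 373 higher and 8 to 411 lower, the lowest without wild-type 1 and the highest without wild-type 3. The median of all genes shifted by 0.20 with normexp and 0.23 without the filter. The replicate block called 138 higher, 241 lower and 2 of the 10 granule genes, losing Serpinb6b (adjusted p = 0.0776). Whether equal replicate numbers pair the samples was not settled: their deviations correlated at -0.17 for number 1 and 0.34 for number 2, and with 2 IL15ko arrays these deviations mirror each other. Directions turned for Unc13d with normexp (-0.04), the deposited table (-0.03) and among fits without 1 array (-0.07 to 0.13), for Srgn with quantile normalization (0.03) and among fits without 1 array (-0.13 to 0.04), for Stxbp2 with the mean over probes (-0.06) and for Cd63 with normexp (0.07). The causes were not tested. Of 471 results for 28 named genes, 303 kept direction and side of the threshold, 160 lost the call and 8 turned. Dim signals such as Stx11, Serpinb9, Lyst and Mcoln2 lie near background, which limits their folds.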
